A study of Mus musculus with 2 samples.

Results

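The 5 microRNA (miRNA) genes Mir132, Mir212, Mir182, Mir183 and Mir96 form a pair of clusters, Mir212 with Mir132 (the Mir132 cluster) and Mir183 with Mir96 and Mir182 (the Mir183 cluster), which have been reported to rise in rat adrenal after ACTH. They were matched by gene name in the annotation, by a rule that uses no measured values, and are 5 of the 2202 miRNA genes counted. MicroRNA-seq counts the short RNAs of a tissue. Here it was applied to the adrenal gland of B6CASTF1/J females at 36 days of age, F1 hybrids whose parents are a laboratory strain and a strain derived from wild mice. The only group held 2 libraries, numbered as biological replicates 1 and 2 and described as separately numbered females, although both carry the same donor identifier. No animal was labelled as given ACTH or any other agent, so the values below are unstimulated levels, and a response to ACTH was not measured.

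ACTH, the pituitary hormone that drives steroid production, acts on cells of the adrenal cortex through a receptor that raises cyclic AMP. Mir132 and Mir212 are transcribed together and are best known from neurons, where the cyclic AMP-responsive factor CREB induces them. Mir183, Mir96 and Mir182 are also transcribed together and are best known from sensory cells of the retina and inner ear. Members of 1 transcript can still give unequal amounts of mature miRNA. The balance described here is that of read counts. Whether the reads of different miRNAs are in proportion to their amounts was not tested.

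The hairpins of both clusters lie close together in mm10 with GENCODE M21 annotation. Mir212 (chromosome 11, 75173388 to 75173478) and Mir132 (75173682 to 75173747) lie on the plus strand, 203 bases apart, in an intron of the noncoding gene 1700016P03Rik (75172560 to 75177633). Mir183 (chromosome 6, 30169668 to 30169737), Mir96 (30169446 to 30169551) and Mir182 (30165918 to 30165992) lie on the minus strand and are transcribed in that order. Between Mir183 and Mir96 lie 116 bases, and between Mir96 and Mir182 lie 3453. GENCODE M21 places none of these 3 in a host gene, whereas RefSeq's GRCm38.p6 annotation, the same assembly, has a noncoding gene over them, Mirc35hg (30158640 to 30174125). No other annotated miRNA gene lies within 50 kb of either cluster.

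The mature sequences that give each cluster its name are shown 5′ to 3′ with the seed, bases 2 to 8, in capitals, because the seed sets which messages a miRNA can pair with. All 5 genes matched RefSeq (GRCm38.p6).
mmu-miR-132-3p: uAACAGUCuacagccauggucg
mmu-miR-212-3p: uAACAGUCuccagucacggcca
mmu-miR-182-5p: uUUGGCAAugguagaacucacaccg
mmu-miR-96-5p: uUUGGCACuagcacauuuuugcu
mmu-miR-183-5p: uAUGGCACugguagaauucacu

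The arms of miR-132 and miR-212 have 1 seed in common, and no other mature arm in the RefSeq table has it. Counted from the 5′ end, miR-132-3p and miR-212-3p are identical at 17 of 22 positions and differ by A10C, C14U, U17C, U20C and G22A (miR-132-3p base first). The 5p arms of the Mir183 cluster have 3 distinct seeds. miR-182-5p and miR-96-5p differ inside the seed by A8C alone (miR-182-5p base first). miR-182-5p and miR-183-5p differ inside it by U2A and A8C, yet are identical at 18 of 22 positions, more than the 12 of 23 positions at which miR-182-5p and miR-96-5p are identical. The seed of miR-96-5p also occurs in miR-1271-5p, whose gene Gm24195 had 0 counts in both libraries, which allows levels of at most 0.556 CPM (replicate 1) and 0.990 CPM (replicate 2). Mir3475, with the seed of miR-96-3p, had 1 and 3 counts.

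The hairpins are shown with both mature arms in capitals, since the deposited count of a gene joins the reads of both arms and cannot say which arm they came from.
Mir212 hairpin: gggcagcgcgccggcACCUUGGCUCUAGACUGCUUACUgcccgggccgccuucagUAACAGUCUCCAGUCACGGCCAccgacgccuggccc
Mir132 hairpin: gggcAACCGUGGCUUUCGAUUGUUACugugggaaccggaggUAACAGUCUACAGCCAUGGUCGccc
Mir183 hairpin: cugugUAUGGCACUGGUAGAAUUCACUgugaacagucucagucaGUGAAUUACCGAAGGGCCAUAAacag
Mir96 hairpin: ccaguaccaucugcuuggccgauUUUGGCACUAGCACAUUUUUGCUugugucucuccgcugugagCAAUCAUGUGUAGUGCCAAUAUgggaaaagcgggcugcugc
Mir182 hairpin: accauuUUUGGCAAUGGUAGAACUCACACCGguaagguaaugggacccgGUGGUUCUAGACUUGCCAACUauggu

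A read that aligned at more than 1 place was counted for no gene, which can hide a miRNA with copies. The longest stretch that a member's hairpin had in common with any other annotated miRNA hairpin, on either strand, was 11 bases for Mir132, 12 for Mir212, 11 for Mir182, 14 for Mir183 and 11 for Mir96. No miRNA gene is annotated on the opposite strand of a member. All 5 had 0 antisense counts in both libraries and the same count with or without strand. The hairpins are 66 to 106 bases long, and Mir212 had the highest GC content, 69.2%, against 57.6% for Mir132 and 45.7 to 50.9% for the genes of the Mir183 cluster.

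The libraries held 5397603 sense miRNA counts in replicate 1 and 3029977 in replicate 2, which is 38.6% and 40.2% of their reads. Levels are CPM, a gene's sense count per 1000000 sense miRNA counts, with 95% Wilson intervals that cover counting error only. As a check of the tissue, miRNAs of endocrine and neuroendocrine cells (Mir375, Mir7-1, Mir7-2, Mir7b) were detected for 4 of 4 genes and had summed levels of 31668 CPM (replicate 1) and 25395 CPM (replicate 2). Most of that was Mir375 (28922 and 22246 CPM), and the rest summed to 2746 and 3150 CPM. Of 9 neuronal genes 2 were detected. All 9 summed to 496 and 554 CPM, most of it Mir137 (435 and 503 CPM). In both libraries 5 were at 0, namely all 3 genes for miR-124, Mir9-2 and Mir9-3. The genes for miR-124, like the numbered Mir9 genes, are copies that could lose reads to several places. Epithelial genes (4 of 7 detected) summed to 873 and 3729 CPM, nearly all of it Mir203 (822 and 3691 CPM), while the other 6 summed to 51.5 and 38.0 CPM. The hepatocyte gene Mir122 had 1503 and 146 CPM. Endothelial (133209 and 69285 CPM), smooth muscle (30240 and 59237), white-cell (1928 and 2617) and red-cell genes (1158 and 558) were all detected. The part of these differences between libraries in the members' values was not tested. In whole tissue, fewer cells of a type and less RNA per cell cannot be told apart.

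All 5 members were detected in the unstimulated gland, that is, each library gave them 10 or more sense counts, a level reached by 339 of 2202 annotated genes (15.4%). Mir182 and Mir132 were the highest, Mir183 was intermediate, and Mir212 and Mir96 were low. Together the 5 genes took 8657 counts in replicate 1 and 3616 in replicate 2, or 0.160% and 0.119% of the sense miRNA counts.

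Mir132 had 3490 counts in replicate 1, or 647 CPM (625 to 668), and 1435 in replicate 2, or 474 CPM (450 to 499). Its mean was 560 ± 122 CPM (SD, n = 2), and it ranked 99th among all annotated genes in each library. Mir212, which carries the same 3p seed, had 183 counts in replicate 1, or 33.9 CPM (29.3 to 39.2), and 99 in replicate 2, or 32.7 CPM (26.8 to 39.8). Its mean was 33.3 ± 0.870 CPM (n = 2), with ranks 235 and 221. That SD is below the counting error of Mir212 and does not show a precision of that size. The 2 genes did not overlap in level, since the lower library of Mir132 was far above the higher library of Mir212.

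Mir182 had 3820 counts in replicate 1, or 708 CPM (686 to 731), and 1529 in replicate 2, or 505 CPM (480 to 531), with a mean of 606 ± 144 CPM (n = 2) and ranks 93 and 92. Mir183 had 1102 counts in replicate 1, or 204 CPM (192 to 217), and 518 in replicate 2, or 171 CPM (157 to 186), with a mean of 188 ± 23.5 CPM (n = 2) and ranks 150 and 145. Mir96 had 62 counts in replicate 1, or 11.5 CPM (8.96 to 14.7), and 35 in replicate 2, or 11.6 CPM (8.31 to 16.1), with a mean of 11.5 ± 0.0457 CPM (n = 2) and ranks 287 and 276. The small SD of Mir96 is below its counting error and does not show a precision of that size. The levels of the 3 genes did not overlap.

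**Figure D1:**
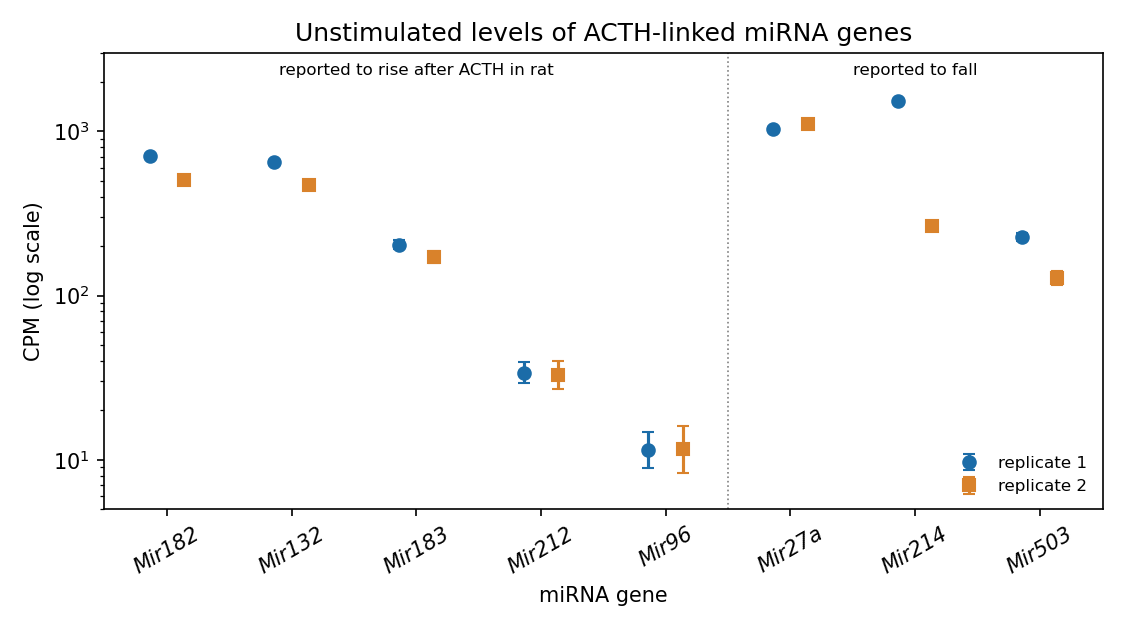
CPM (log scale) of each gene in replicate 1 (circles) and replicate 2 (squares), with 95% Wilson intervals as bars. The 5 members descend from Mir182, at 708 and 505 CPM, to Mir96, at 11.5 and 11.6 CPM, and 3 genes reported to fall after ACTH in rat stand to the right.

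The order of the levels was Mir182, Mir132, Mir183, Mir212 and Mir96 in both libraries. Mir182 exceeded Mir132 by 1.09-fold in replicate 1 (95% exact interval of the ratio of counts 1.05 to 1.15) and 1.07-fold in replicate 2 (0.991 to 1.15). Mir182 was thus the higher in both libraries, with an interval that includes equality in replicate 2, and the ranges of the 2 genes over the libraries overlapped. The other neighbours in the order were apart by 2.96-fold (Mir132 over Mir183), 5.61-fold (Mir183 over Mir212) and 2.89-fold (Mir212 over Mir96) as geometric means. Their ranges over the libraries did not overlap. These are read counts not divided by length, because a read covers a mature miRNA of 21 to 25 bases whatever the hairpin's length. Divided by hairpin length, Mir132 (9.80 and 7.18 CPM per base) came before Mir182 (9.44 and 6.73 CPM per base), and the others kept their places.

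**Figure D2:**
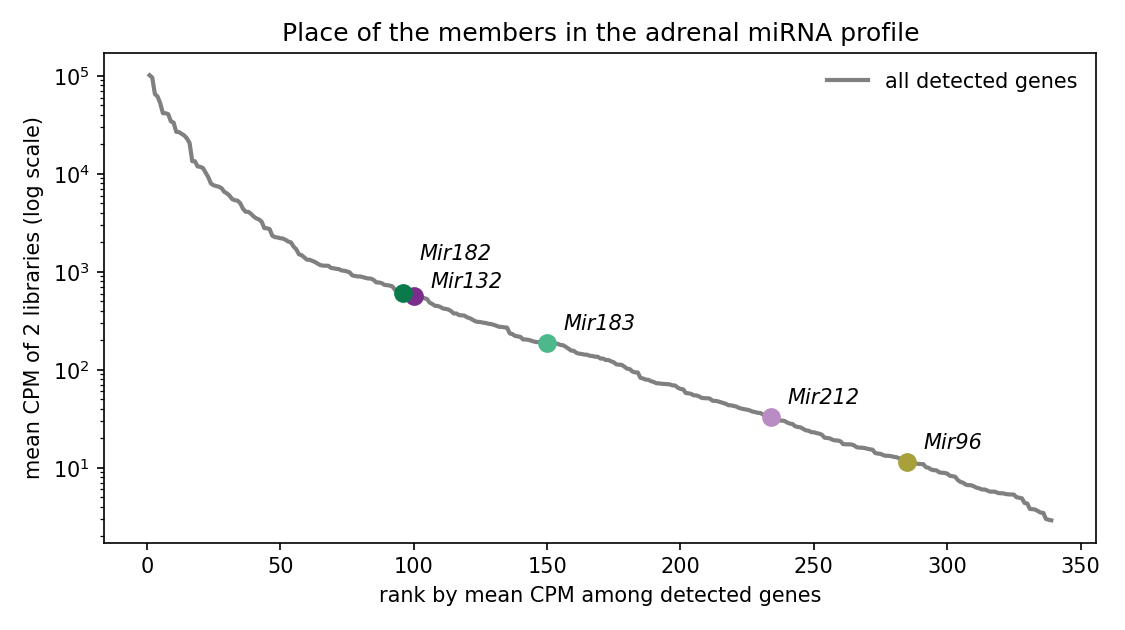
Mean CPM of the 2 libraries (log scale) against rank among the 339 detected genes, with the members as coloured points. Mir182 and Mir132 stand near rank 100, Mir183 at rank 150, Mir212 at rank 234 and Mir96 at rank 285.

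The genes nearest in mean level give a scale for these values, since 2 libraries allow no comparison of patterns. Mir148a (611 ± 23.1 CPM) stood just above Mir182 and Mir342 of white cells (576 ± 10.4 CPM) just below it. Mir142, also of white cells (564 ± 294 CPM), and Mir101b (559 ± 146 CPM) stood on either side of Mir132. Next to Mir183 were mmu-mir-3535 (190 ± 212 CPM) and Mir196a-2 (186 ± 23.1 CPM), next to Mir212 were Mir92-2 (33.9 ± 10.5 CPM) and Mir539 (31.8 ± 9.02 CPM), and next to Mir96 were Mir511 (11.6 ± 8.80 CPM) and Mir219a-1 (11.2 ± 7.46 CPM). Each of these is a mean ± SD with n = 2, and in each case the gap to the member was smaller than an SD of the pair.

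The Mir132 cluster was made up mostly of Mir132 itself. Of the counts of the cluster, 95.02% (95% Wilson interval 94.27 to 95.68%) were Mir132 in replicate 1 and 93.55% (92.20 to 94.67%) in replicate 2, and Mir212 held the other 4.982% and 6.454%. Mir132 exceeded Mir212 by 19.1-fold in replicate 1 (95% exact interval 16.4 to 22.2) and 14.5-fold in replicate 2 (11.8 to 18.0), a mean log2 ratio of 4.06 ± 0.28 (SD, n = 2). The excess was larger in replicate 1 by 0.40 on the log2 scale, which did not pass after adjustment over the 4 ratios of members (Fisher's exact test, two-sided, p = 0.0372, adjusted p = 0.0743).

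In the Mir183 cluster most counts were Mir182, and Mir96 had the smallest share. Mir182 held 76.65% of the counts in replicate 1 (75.45 to 77.80%) and 73.44% in replicate 2 (71.50 to 75.29%), intervals that do not overlap. Mir183 held 22.11% (20.98 to 23.28%) and 24.88% (23.07 to 26.78%), and Mir96 held 1.244% (0.9717 to 1.591%) and 1.681% (1.211 to 2.329%). Mir182 exceeded Mir183 by 3.47-fold in replicate 1 (95% exact interval 3.24 to 3.71) and 2.95-fold in replicate 2 (2.67 to 3.27). Mir182 exceeded Mir96 by 61.6-fold in replicate 1 (48.0 to 80.5) and 43.7-fold in replicate 2 (31.3 to 63.0). Mir183, whose hairpin lies nearest to that of Mir96, exceeded it by 17.8-fold (13.8 to 23.3) and 14.8-fold (10.5 to 21.5). The mean log2 ratios were 1.68 ± 0.16, 5.70 ± 0.35 and 4.02 ± 0.19 (SD, n = 2 each). The excess of Mir182 over Mir183 was larger in replicate 1 beyond counting error (Fisher's exact test, two-sided, adjusted p = 0.0357). The excess of Mir182 over Mir96 (adjusted p = 0.151) and of Mir183 over Mir96 (adjusted p = 0.434) did not pass that exact test.

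**Figure D3:**
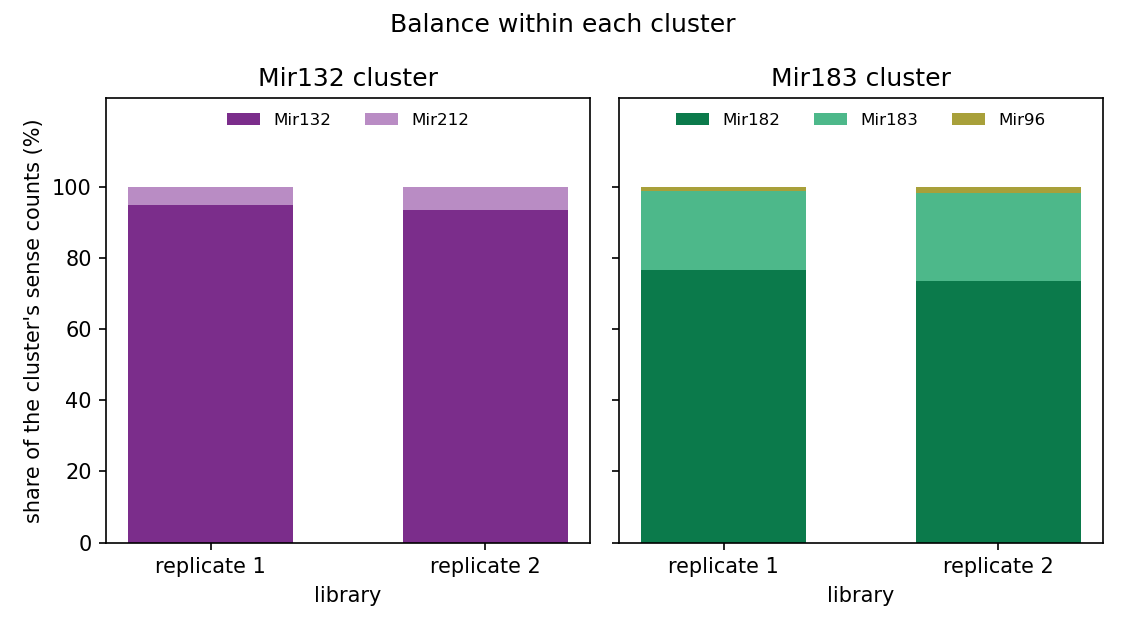
Share of each cluster's sense counts (percent) taken by each member, as stacked bars for replicate 1 and replicate 2. Mir132 takes 95.02% and 93.55% of its cluster, and Mir182 takes 76.65% and 73.44% of the other, with Mir96 as a thin band at 1.244% and 1.681%.

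The clusters as wholes differed less in level than the members within each cluster. The genes of the Mir183 cluster had sums of 923 CPM (replicate 1) and 687 CPM (replicate 2), with a mean of 805 ± 167 CPM (n = 2), and those of the Mir132 cluster had sums of 680 and 506 CPM (593 ± 123, n = 2). The ratio of the clusters was 1.36-fold in replicate 1 (95% exact interval 1.30 to 1.42) and 1.36-fold in replicate 2 (1.27 to 1.45). The Mir183 cluster was the higher in each library beyond counting error. Its lower library (687 CPM, replicate 2) and the higher library of the Mir132 cluster (680 CPM, replicate 1) were close together.

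Unequal neighbours were common in these libraries, so the balance within the clusters was set beside that of all neighbouring pairs, the members' own included. Of consecutive detected miRNA genes on the same strand with starts within 10 kb there were 109 pairs, 46 of them on chromosome 12. The 3 consecutive pairs of members were apart by 16.8-fold (Mir132 over Mir212), 16.3-fold (Mir183 over Mir96) and 52.6-fold (Mir182 over Mir96) in mean CPM. Over all 109 pairs the median was 4.42-fold and the quartiles were 1.83-fold and 15.0-fold, so all 3 pairs lay above the upper quartile. Pairs at least as unequal, each pair itself counted, numbered 25, 26 and 14 in that order (22.9%, 23.9% and 12.8%). All 3 pairs of members include Mir96 or Mir212, the members with the fewest counts. None of them remains with at least 100 counts per gene in both libraries. Mir132 with Mir212 missed that minimum in replicate 2 only, where Mir212 had 99 counts (183 in replicate 1). At that minimum Mir183 with Mir182 is the 1 pair of members among 76. The mean log2 ratio of Mir182 over Mir183 was 1.68, and the median log2 size over those 76 pairs was 1.68. A pair counted only where both genes were detected, so more unequal pairs are missed, and pairs that include a gene with copies elsewhere are uncertain.

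The excess of Mir132 over Mir212, and of Mir183 and Mir182 over Mir96, was present in both libraries. On the log2 scale these ratios differed between replicates 1 and 2 by 0.40 (Mir132 over Mir212), 0.26 (Mir183 over Mir96) and 0.50 (Mir182 over Mir96), against a median of 0.70 and quartiles of 0.27 and 1.20 over all pairs. In each of the 4 ratios given above, the more abundant member had the larger excess in replicate 1. These ratios are not independent, since that of Mir182 over Mir96 follows from the other ratios of its cluster. Only Mir182 over Mir183 differed between the libraries beyond counting error after adjustment. The last hairpin in the direction of transcription was the highest of each cluster, Mir132 in one and Mir182 in the other. Over all pairs the downstream gene was the higher in 52 of 109 (47.7%).

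**Figure D4:**
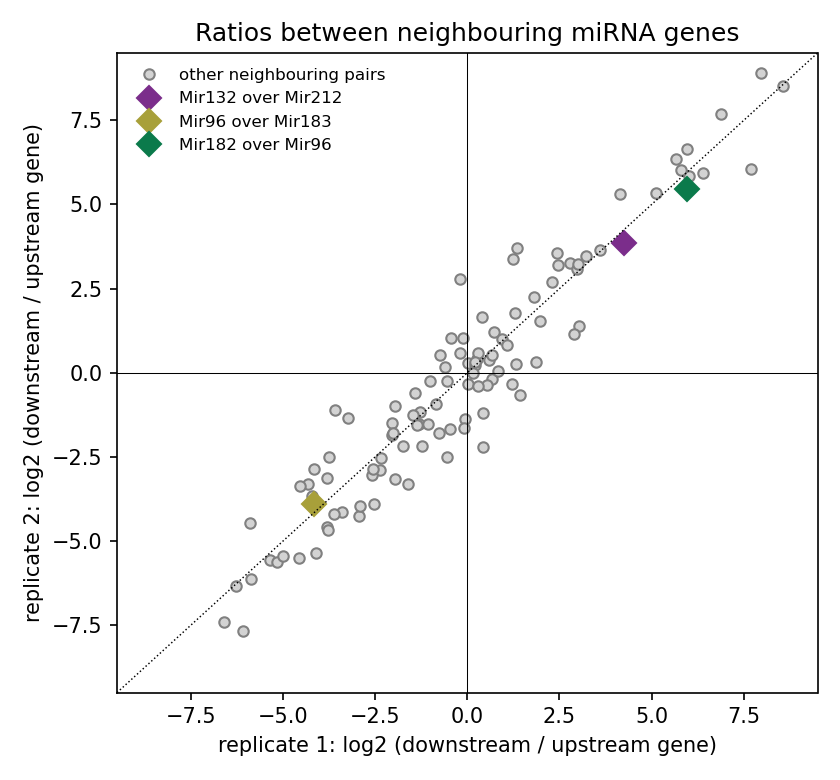
Log2 ratio of the downstream over the upstream gene for 109 pairs of neighbouring detected miRNA genes, in replicate 1 (horizontal) and replicate 2 (vertical), with equality as the dotted line. The 3 pairs of members (diamonds) lie near that line and far from 0 on both axes.

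The comparison of the libraries asked whether the unstimulated levels themselves repeated. An exact binomial test, two-sided, set the difference of each gene against counting error, with TMM scaling and Benjamini-Hochberg adjustment over the 434 genes whose 2 counts summed to at least 10. Of these, 254 were called (58.5%), 131 higher in replicate 1 (30.2%) and 123 higher in replicate 2 (28.3%). That split depends on the scaling, since 189 were higher in replicate 1 and 83 in replicate 2 with total counts, and 119 and 137 with DESeq2 size factors. Of the members 2 of 5 were called, both higher in replicate 1. These are differences between libraries of 1 condition.

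Mir182 had a log2 ratio of replicate 1 over replicate 2 of 0.19 (95% exact interval 0.10 to 0.27, adjusted p = 4.40e-05, exact binomial test), a 1.14-fold difference. Mir132 had 0.15 (0.06 to 0.24, adjusted p = 0.00231, exact binomial test), or 1.11-fold. With DESeq2 size factors its ratio was 0.07 and the call was lost (exact binomial test, adjusted p = 0.150). The ratio of Mir182 was 0.11 with DESeq2 size factors and 0.49 with total counts, and that of Mir132 was 0.45 with total counts. The intervals do not cover the choice of scaling. The ratios of Mir183 (-0.05, adjusted p = 0.640), Mir212 (-0.25, adjusted p = 0.245) and Mir96 (-0.32, adjusted p = 0.414) did not pass the exact binomial test. The intervals were -0.20 to 0.11 for Mir183, -0.61 to 0.12 for Mir212 and -0.93 to 0.33 for Mir96. Each includes equality, and differences within these limits were not excluded. With total counts in place of TMM every log2 ratio was higher by 0.30. Mir183 then had 0.26 and was called higher in replicate 1 (exact binomial test, adjusted p = 0.00165), and Mir212 turned to 0.05 (adjusted p = 0.846).

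The median size of the log2 ratio was 0.19 over the 5 members and 0.57 over the 434 genes tested. With the pooled dispersion between libraries as the error, in edgeR's exact negative binomial test, 0 of 434 genes were called (0%), and 24 had an unadjusted p under 0.05. That dispersion comes from the differences between the same 2 libraries, so the count of 0 says little about any gene.

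**Figure D5:**
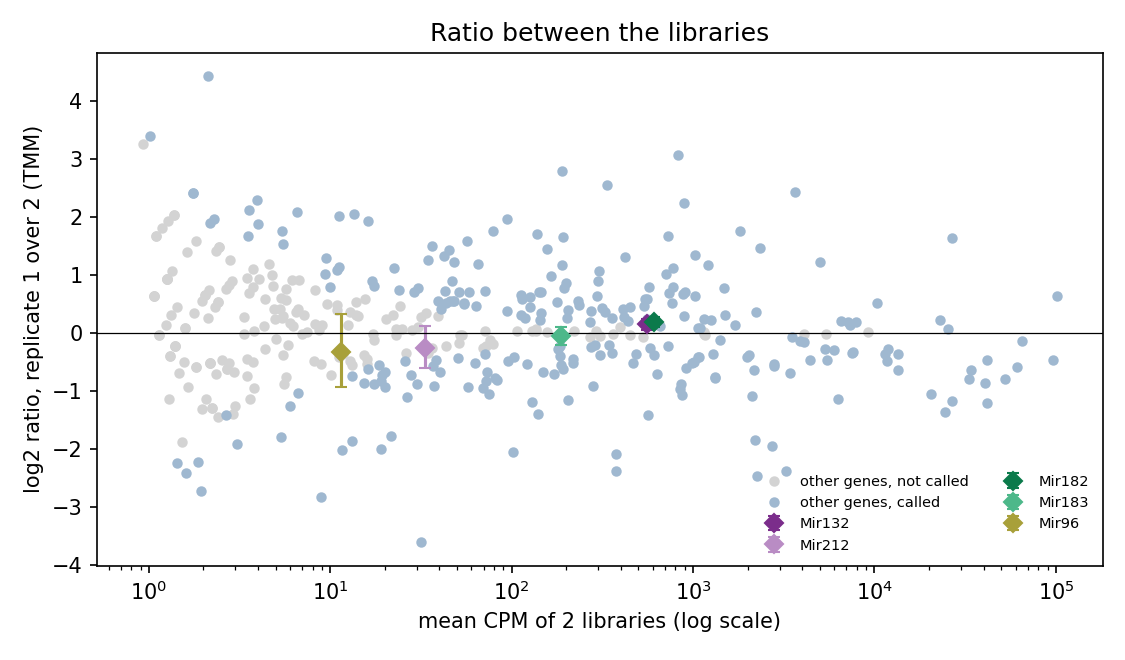
Log2 ratio of replicate 1 over replicate 2 (TMM scaling) against mean CPM (log scale) for 434 genes, with members as diamonds with 95% exact intervals. The members lie between -0.32 and 0.19, and the wider spread of the other genes includes genes with few counts.

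Other miRNAs have been reported in rat adrenal to fall after ACTH, and their levels in the same libraries give the other side of that list. Mir27a (1031 and 1112 CPM) was above every member in both libraries, Mir214 (1528 and 264 CPM) was above every member in replicate 1 only, and Mir503 (228 and 128 CPM) was above Mir183 in replicate 1 and below it in replicate 2. The 8 annotated Mir466b genes had 1 count in replicate 1 and 0 in replicate 2. Each shares at least 47 bases with another miRNA hairpin, so their reads could map to several places and this does not show absence. Mir27a shares 20 bases with Mir27b and is uncertain for the same reason. The 5 members had sums of 1604 CPM (replicate 1) and 1193 CPM (replicate 2), against 2787 and 1503 CPM for the 11 genes reported to fall, of which 3 were detected.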

How the data were processed

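The deposited table of each library holds raw counts of reads for every annotated miRNA gene in 3 columns, below 4 summary entries. The mm10 assembly and GENCODE M21 annotation are those given in the notes deposited with each library. How reads were trimmed, aligned and counted is not given in the sources used here. The columns have no header. Their equal totals, and genes with no opposite-strand partner, show counts without strand, sense and antisense, and the sense column was used. The summary entries stayed out of library sizes and tests (unmapped reads 26.0% and 22.3%, reads at several places 28.5% and 30.6%, no miRNA gene 6.88% and 6.86% in replicates 1 and 2). Replicate 1 was 1.78-fold deeper, and 1 count is worth 0.185 CPM in it and 0.330 CPM in replicate 2. Without molecular identifiers a PCR duplicate counts like a molecule, so intervals cover counting error only, as do limits for a count of 0 (3 counts). p-values of the binomial and Fisher's exact tests set these libraries, which may not be 2 animals, against counting error and carry no spread between animals.

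Ratios between libraries used TMM (edgeR 4.0.16, R 4.3.3), a prior of 0.5 counts, exact binomial tests and intervals (scipy 1.17.1) and Benjamini-Hochberg adjustment (statsmodels 0.14.6) with a threshold of 0.05. The only group had no contrast to fit. Alternatives were total counts, DESeq2 1.42.0 size factors, other count minimums and priors, counts without strand, replicate 1 thinned to the depth of replicate 2, edgeR's common dispersion as the error, other denominators, each library left out, and other rules for neighbours. Division by hairpin length and Fisher's exact test of the members' ratios between libraries were chosen after seeing the data. Named genes were the members, miRNA genes within 50 kb, genes with the same seed, those next in mean CPM and those reported to fall after ACTH. The rule for members uses no values, but members and lists were proposed with earlier results of these data known. The binomial test was checked on simulated Poisson counts. Their only spread is counting error, so the check does not cover further spread between libraries. Figures used matplotlib 3.10.9.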

Additional observations from a re-analysis of the deposited data

How the results depend on the processing

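No paired analysis was possible because the study has 1 group. Of the members 4 of 5 reached 50 counts in both libraries. Between 236 and 272 genes were called between libraries under 6 alternatives, but the share called was 32.2% of 769 genes with no filter and 76.5% of 319 with at least 50 counts. The count was 0 with the common dispersion as the error, where Mir132 (log2 ratio 0.15) and Mir182 (0.19) had an adjusted p of 1.00 each (edgeR's exact test). As that dispersion was estimated from the same 2 libraries, these lost calls say nothing on stability. Mir132 also lost its call with DESeq2 size factors (0.07). The ratio of Mir183 turned to 0.26 with total counts, 0.09 with no filter and 0.06 with at least 50 counts, and that of Mir212 to 0.05 with total counts. Mir132 and Mir182 had 0.28 and 0.32 with no filter, and 0.25 and 0.29 with at least 50 counts. TMM was recomputed on the genes each filter kept.

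Within the clusters no ratio changed direction. The log2 ratio was 3.86 to 4.25 for Mir132 over Mir212 when a library was left out, 1.56 to 1.79 for Mir182 over Mir183, 5.45 to 5.95 for Mir182 over Mir96 and 3.89 to 4.15 for Mir183 over Mir96. Divided by hairpin length, the ratios over Mir212 and Mir96 were 4.52 (Mir132 over Mir212), 6.20 (Mir182 over Mir96) and 4.62 (Mir183 over Mir96). The Mir132 cluster had 506 to 680 CPM and the Mir183 cluster 687 to 923 CPM when a library was left out. Per 1000000 reads of all kinds they had 233 and 317, and per 1000000 counts without strand 743 and 1009. The median log2 size of the ratio between neighbours, 2.14, was 1.68 with at least 100 counts per gene, where Mir183 with Mir182 is the 1 pair of members among 76, and between 2.03 and 2.49 when a library was left out. Mir96, with 62 and 35 counts, is the member whose values depth limits most.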
